A study of Mus musculus with 23 samples.

Results

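Ccl5-high CD8 T cells of the mouse spleen were read in single-cell RNA sequencing libraries from wild-type (WT) mice and from mice with 1 of 2 changes of the tyrosine Y665 of the transcription factor STAT5B, to histidine (Y665H) or to phenylalanine (Y665F). A cell was a member when its barcode held at least 500 genes and at most 10% mitochondrial unique molecular identifiers (UMIs, each standing for 1 captured transcript), at least 1 UMI of Cd8b1, none of Cd4, at most 1 of the B-cell gene Cd79a and at least 3 of the chemokine gene Ccl5. This gave 372 members in WT, 280 in Y665H and 1258 in Y665F, in all 1910 of the 5165 CD8 T cells that met the rule without its last clause and of 19566 kept spleen barcodes. The mice were labelled C57BL/6, in lines made from C57BL/6N eggs, and were 2 months old, and the study combined 3 mice of a genotype into each spleen library and sorted cells for the leukocyte surface protein CD45. The spleen labels name the genotypes and give no zygosity. Y665F was introduced with Cas9 and a donor oligonucleotide and Y665H with an adenine base editor, and both lines were made with the same guide RNA.

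CCL5 is a chemokine that memory and effector CD8 T cells keep ready as message or stored protein, whereas naive CD8 T cells hold little of it. Memory CD8 T cells survive on interleukin 15 and interleukin 7, whose receptors activate the kinases JAK1 and JAK3, and these in turn phosphorylate STAT5A and STAT5B. Phosphorylated STAT5 enters the nucleus and raises genes for survival (Bcl2), for its own feedback inhibitors (Cish, the SOCS genes) and for the shared interleukin 2 and 15 receptor chain (Il2rb). Effector cells carry KLRG1, CX3CR1 and granzymes.

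The codon that was changed lies in exon 16 of Stat5b on the minus strand of chromosome 11. The coding strand is shown at chr11:100787261-100787323 (GRCm38, minus strand) from the reference and from the Y665F donor, with the codon of Y665 in capitals. The guide lies on the plus strand at chr11:100787287-100787309, ends in its PAM, and its capitals mark the complement of that codon.
Stat5b reference: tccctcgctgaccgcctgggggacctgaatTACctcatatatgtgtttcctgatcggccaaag
Y665F donor: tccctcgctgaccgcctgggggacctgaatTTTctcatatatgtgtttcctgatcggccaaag
guide: tgagGTAattcaggtcccccagg
Over its 133 listed bases the donor differed from the reference in 2, both in this codon. The methods of the study also describe a silent change that removes the PAM, which the listed sequence does not hold.

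The 3 libraries held between 36889328 and 47206322 UMIs. Members had medians of 8204.5 (WT), 8897 (Y665H) and 9342 (Y665F) UMIs and of 2484.5, 2620.5 and 2460.5 genes per cell. Summed over members, levels rest on 3138771, 2539482 and 11507650 UMIs and are in CPM, each gene's UMIs after every sum was brought to the same conventional total, so that 1 UMI is worth 0.319, 0.394 and 0.0869 CPM. Runs of 3 values are in the order WT, Y665H and Y665F throughout. With 1 library per genotype no test between genotypes was possible in the spleen: intervals are exact 95% intervals that cover counting error only, and differences between mice or between libraries have no measure here. The libraries shared 12, 7 and 18 barcodes pair by pair, none of them between members.

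Genes of the T-cell receptor complex, which define a T cell, were present in the members of each library. A UMI of Cd3d, Cd3e or Cd3g was found in 98.4% (WT), 96.4% (Y665H) and 99.4% (Y665F) of members. Cd8a, the partner chain of Cd8b1, stood at 402, 391 and 376 CPM. Free RNA in the droplets bears on the rule. In B cells of the same libraries (at least 3 UMIs of Cd79a, none of Cd8b1 or Cd3e), with medians of 3923, 3941 and 3846 UMIs, 13.5% (WT), 11.5% (Y665H) and 17.1% (Y665F) held a UMI of Ccl5, but 0.777%, 0.615% and 0.136% held 3 or more.

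A far larger share of CD8 T cells was Ccl5-high in Y665F than in the other libraries. The share was 20.9% in WT (95% interval 19.1 to 22.9), 19.4% in Y665H (17.4 to 21.5) and 64.7% in Y665F (62.5 to 66.8). Of all kept spleen barcodes, members made up 5.52%, 3.56% and 25.4%. The Y665F members also held more Ccl5 per cell, with a median of 47 UMIs and a middle range from 21 to 82, against 28 in WT (10 to 59) and 24.5 in Y665H (10.75 to 44). Ccl5 itself chose these cells, so its levels are a description of the rule.

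**Figure D1:**
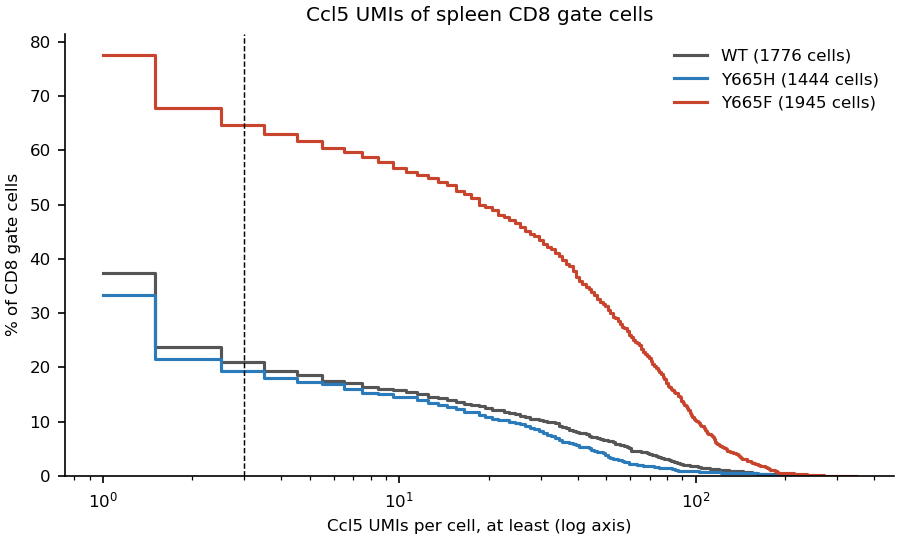
Share of CD8 T cells (y axis, percent) that held at least a given number of Ccl5 UMIs (x axis, log scale) in the WT, Y665H and Y665F libraries, with a dashed line at the 3 UMIs of the rule. The Y665F curve lies above the others over the whole range and passes the rule at 64.7%, against 20.9% in WT and 19.4% in Y665H.

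Few cells lay close to the step at 3 UMIs. Cells with exactly 3 Ccl5 UMIs numbered 28 (WT), 18 (Y665H) and 33 (Y665F), and cells with exactly 2 numbered 49, 31 and 62. Il2rb stood at 205, 186 and 199 CPM in the cells with 3 UMIs just inside and at 153, 180 and 204 CPM in those with 2 UMIs just outside. Eomes stood at 158, 93.2 and 44.3 CPM just inside and at 143, 119 and 66.1 CPM just outside. Lef1, a transcription factor of naive T cells, stood at 407, 271 and 184 CPM just inside and at 532, 529 and 417 CPM just outside. Ccr9, a gut homing receptor, stood at 3.67, 16.9 and 8.85 CPM just inside and at 40.6, 122 and 34.9 CPM just outside. With so few cells these levels are rough, and those of Ccr9 just inside rest on few UMIs.

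Seen against CD8 T cells of the same library without any Ccl5 UMI (1113 in WT, 962 in Y665H and 435 in Y665F), members carried memory and killer genes. Genes without a UMI in one of the sets of a library have no ratio and were not counted here. In all 3 libraries 103 of 5686 genes were at least 2-fold higher in members and 12 at least 2-fold lower, which follows in part from the rule, since both sets were chosen by Ccl5. Among genes with a ratio in each library, the 10 with the largest mean difference upward were Klre1, Cd163l1, Klrc1, Klrc2, Fasl, Gzma, Klrg1, Gzmb, Osbpl3 and Gzmm. Some of these ratios rest on very few UMIs in cells without Ccl5, so the order is rough. Cd163l1 had 1 UMI there in WT and 1 in Y665H, and Klrg1 had 1 in Y665H. Klrc1 and Fasl stood at 0.296 CPM in the Y665F cells without Ccl5. S1pr5 had no UMI in Y665H cells without Ccl5, and Klra6 and Klra9 had none in those of Y665F, so these genes were not ranked. Klre1, a lectin-like receptor of killer cells, stood at 94.9 CPM in WT members and at 0.788 CPM in WT cells without Ccl5. Fasl, the ligand that triggers the death receptor FAS, stood at 29.6 CPM against 0.657 CPM. The memory receptor chain Il2rb was at 377 CPM in WT members and at 77.1 CPM in WT cells without Ccl5. Cd44, the classical surface marker of memory T cells, stood at 97.2 CPM against 14.2 CPM in WT. On the lower side, Igfbp4 (a binding protein of insulin-like growth factors), Itgae (the integrin chain CD103) and Dapl1 were 2-fold lower in members of all 3 libraries.

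Members were not uniform, and their make-up followed the amount of Ccl5. Of WT members, 24.5% held 3 to 9 Ccl5 UMIs, 26.1% held 10 to 29, 41.1% held 30 to 99 and 8.33% held 100 or more. In Y665F the upper classes were fuller, with 51.3% at 30 to 99 and 15.9% at 100 or more. In WT, Lef1 stood at 371 CPM (332 to 414) in members with 3 to 9 Ccl5 UMIs and at 202 CPM (142 to 280) in the 31 members with 100 or more. Gzma, a granzyme of effector and NK cells, ran the other way, from 10.4 to 4630 CPM. These 31 cells held 297 CPM of Klrg1 and 713 CPM of Cx3cr1, the receptors of effector cells.

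The cells with the most Ccl5 differed between genotypes. In the 200 Y665F members with 100 or more Ccl5 UMIs, Gzma stood at 1398 CPM, Klrg1 at 60.0 CPM (48.3 to 73.8 against 223 to 389 in WT) and Cx3cr1 at 169 CPM. Lef1 stood at 200.1 CPM there, close to the WT value. Bcl2 in WT was 535 CPM in members with 30 to 99 Ccl5 UMIs and 185 CPM (127 to 260) in those with 100 or more, while in Y665F it was 1157 and 1077 CPM. In Y665H only 12 members held 100 or more Ccl5 UMIs, and their Gzma stood at 2163 CPM and their Bcl2 at 218 CPM.

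**Figure D2:**
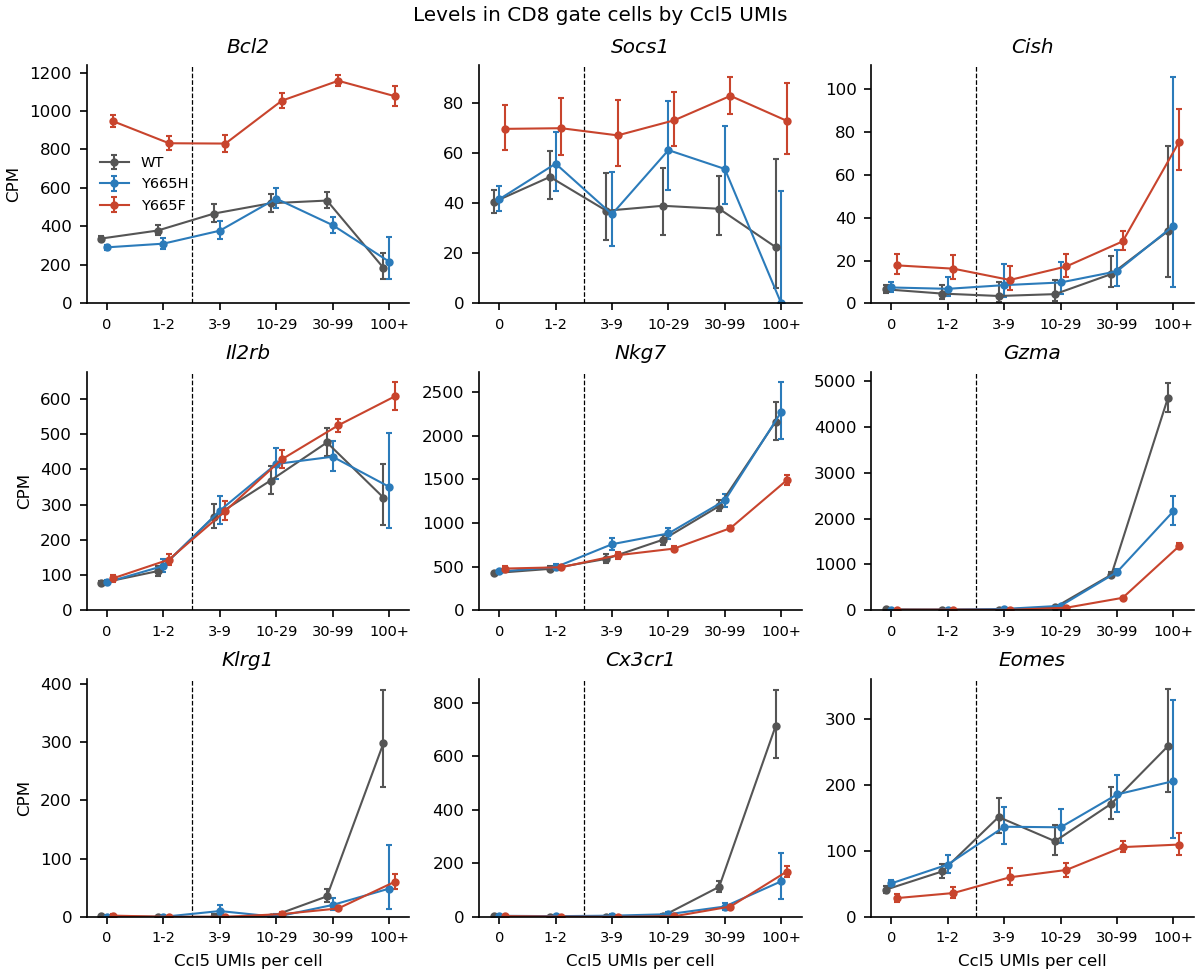
Levels of 9 genes (y axis, CPM, with exact Poisson 95% intervals) in CD8 T cells grouped by their Ccl5 UMIs (x axis) in the 3 spleen libraries; cells right of the dashed line are members. In the class with 100 or more Ccl5 UMIs, Gzma runs from 4630 CPM in WT to 1398 CPM in Y665F, Cx3cr1 from 713 to 169 CPM and Bcl2 from 185 to 1077 CPM.

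Members were also split by Gzma at equal depth. Each member was thinned to 3000 UMIs, which left out 13 WT, 10 Y665H and 31 Y665F members. Gzma was then found in 59 of 359 WT, 33 of 270 Y665H and 141 of 1227 Y665F members. WT members with Gzma held 780 CPM of Cx3cr1 and 1113 CPM of Zeb2, a repressor that drives effector differentiation. WT members without Gzma held 20 CPM of Cx3cr1 and 33.3 CPM of Zeb2. The corresponding values of Cx3cr1 in Y665H were 182 CPM with Gzma and 9.85 CPM without, and those in Y665F were 515 and 20.3 CPM. Il7r, the interleukin 7 receptor chain of long-lived cells, was 435 CPM in WT members with Gzma and 989 CPM in those without, in Y665H it was 677 and 1017 CPM, and in Y665F 173 and 798 CPM. The members with Gzma also held more RNA of NK genes, with Ncr1 at 130 against 16.7 CPM in WT, 242 against 4.22 CPM in Y665H and 59.1 against 0 CPM in Y665F, and Klrb1c at 147 against 20 CPM in WT. The part of NK cells in this split was not tested.

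Across all members, 5941 genes reached 20 CPM in at least 1 of the 3 sums. Of these, 30 (0.505%) were at least 2-fold higher in Y665F than in WT and 74 (1.25%) at least 2-fold lower. In Y665H, 45 (0.757%) were at least 2-fold higher than in WT and 12 (0.202%) lower. Both comparisons share the WT library, so that 1 library sets the base of each. The median log2 ratio over all 5941 genes was -0.19 in Y665F and 0.01 in Y665H. Scaling by TMM, which sets the bulk of genes level, shifted the Y665F ratios by 0.23 on the log2 scale. Over the same 5941 genes TMM scaling gave 41 higher and 45 lower, so the excess of lower genes in Y665F shrank with the scaling. Of the 5845 genes past 20 CPM on that scale, 45 were higher and 41 lower, so the order turned only where the gene set changed as well. Gm42418, a model with ribosomal RNA sequence, took 1.504% of the WT and 3.03% of the Y665F member UMIs, and ribosomal protein genes 33.8% and 37.3%.

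RNA of other cell types moved with the genotypes. Neutrophil genes summed to 328 (WT), 749 (Y665H) and 3548 (Y665F) CPM in members. In Y665F, 20 members with at least 10 neutrophil UMIs each held 91.3% of these UMIs, and without such cells the sums were 29.2, 335 and 320 CPM. S100a8, a neutrophil gene, was found in 8.60%, 59.6% and 56.6% of members and in 4.72%, 43.9% and 41.6% of the B cells. In CD8 T cells without Ccl5, neutrophil genes summed to 340, 9650 and 7080 CPM and red-cell genes to 13.4, 1265 and 2.96 CPM. That comparison set is thus not free of RNA from other cell types. In members, all 7 neutrophil genes past the 20 CPM limit were at least 2-fold higher in Y665F than in WT (0.505% of all genes), as were 5 of them in Y665H (0.757% of all genes). Ngp (1.59, 19.7 and 253 CPM) and Camp (0.637, 18.9 and 330 CPM) passed the limit only through Y665F, so their place in this count is not independent of the limit. Natural killer (NK) markers summed to 104, 159 and 43.3 CPM, with Ncr1, the NK receptor NKp46, in 5.11%, 7.14% and 1.51% of members. Antigen-presenting genes followed a like order, with Cd74, the chaperone of MHC class II, at 130, 316 and 16.5 CPM. The γδ T-cell gene Trdc was at 32.5, 33.9 and 11.3 CPM, and Sox13 and Il17a, genes of γδ T-cell subsets, were at 0 in WT and in Y665H. Doublets were not called, and the part of these cells in each gene's ratio was not tested beyond the alternatives given with it.

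**Figure D3:**
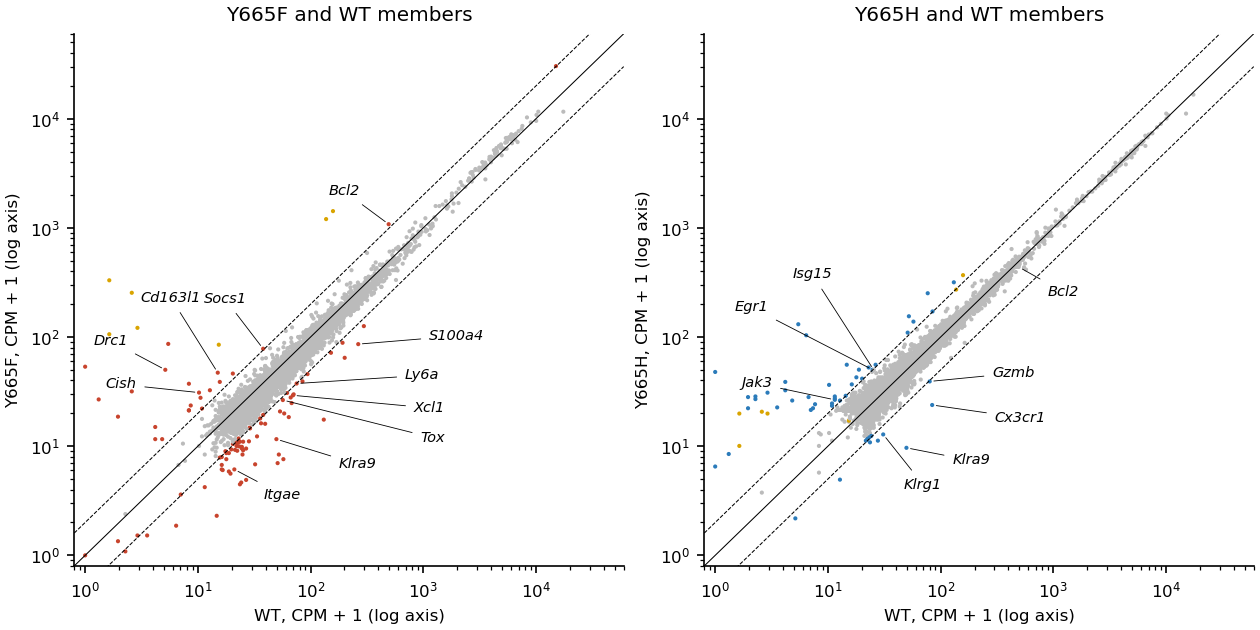
Level of each gene past the 20 CPM limit in members (CPM + 1, log axes), Y665F against WT and Y665H against WT; dashed lines mark 2-fold, coloured points the genes beyond it and yellow points the neutrophil list. Bcl2, Cish, Socs1 and Drc1 lie above the 2-fold line for Y665F, and neutrophil genes make up much of the far upper edge.

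Several genes that STAT5 is known to drive stood higher in Y665F members. Of the 22 listed STAT5 target genes, 15 passed the 20 CPM limit, and 14 of these 15 lay above the median of all genes in Y665F, with a list median log2 ratio of 0.27 against -0.19 over all genes. Cish, Socs1 and Bcl2, 3 of the 15, were at least 2-fold higher (0.505% of all genes) and Irf8 at least 2-fold lower (1.25% of all genes). Above WT lay 11 of the 15, beside 1244 of all 5941 genes. In CD8 T cells without Ccl5 the list median was 0.37, so a list median above WT was found there too. Cish, the feedback inhibitor that binds the receptor's docking sites, stood at 9.24 (WT), 12.2 (Y665H) and 29.98 CPM (Y665F). It reached 20 CPM only in Y665F, so its place in the counts above rests on the library where it was highest. Its log2 ratio of Y665F over WT was 1.70 (1.15 to 2.30). Thinned to equal depth, 2.51%, 2.96% and 9.78% of members held a UMI of Cish, so most members had none at this depth. CD8 T cells without Ccl5 held 6.57, 7.43 and 17.7 CPM of Cish.

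Socs1, which inhibits JAK kinases directly, stood at 37.0 (WT), 49.2 (Y665H) and 77.1 CPM (Y665F). The Y665F ratio was 1.06 (0.78 to 1.35) on the log2 scale and 0.96, just short of 2-fold, in a stricter gate that kept members with a CD3 UMI, no UMI of Cd79a, Ms4a1, Ncr1, Csf1r or Trdc, and at most 2 times the median UMIs. CD8 T cells without Ccl5 showed a like pattern, with 40.3 CPM of Socs1 in WT and 69.5 CPM in Y665F. Bcl2, the survival protein that blocks mitochondrial cell death, stood at 492 (WT), 437 (Y665H) and 1080 CPM (Y665F), a log2 ratio of 1.13 (1.06 to 1.21) for Y665F. It was found in 65.5%, 55.9% and 91.1% of thinned members. The difference held on both sides of 30 Ccl5 UMIs, with log2 ratios of 0.97 in members below and 1.22 in members at or above, and CD8 T cells without Ccl5 held 337 CPM in WT and 948 CPM in Y665F. The higher Bcl2 level in Y665F was thus found in CD8 T cells with and without Ccl5.

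Smaller differences ran through the rest of the list. Pim1, a kinase that promotes growth and survival, stood at 101 (WT), 124 (Y665H) and 158 CPM (Y665F). Myc, the growth regulator, was 50.7, 50.4 and 75.9 CPM. Il2rb was 377, 384 and 481 CPM, with a log2 ratio of 0.35 (0.26 to 0.44) for Y665F. Ccnd2, a D-type cyclin that opens the cell cycle, was 501, 506 and 605 CPM. Irf8, a transcription factor also abundant in myeloid and B cells, was the only one of the 15 below the all-gene median in Y665F, at 37.0, 54.7 and 18.3 CPM, but 5 cells held 62.1% of its WT UMIs and its log2 ratio in the stricter gate was 0.040. Mcl1, Slc3a2 and Socs3 also lay below WT, with log2 ratios of -0.08, -0.14 and -0.11. Gzmb, the granzyme that cleaves caspases, stood at 79 CPM in WT, close to the 88.0 CPM of Y665F, and at 38.2 CPM in Y665H, a log2 ratio of -1.05 (-1.40 to -0.70) for Y665H. This ratio fell short of 2-fold in the stricter gate (-0.81), with thinned members (-0.89) and with at least 30 Ccl5 UMIs (-0.85). With at least 2 or 5 Ccl5 UMIs, at least 2 Cd8b1 UMIs or TMM scaling it lay between -1.02 and -1.11. In Y665H, 10 of the 15 STAT5 targets were higher than in WT, beside 3151 of all 5941 genes. The list median log2 ratio there was 0.03 against 0.01 over all genes, and with TMM scaling 7 of the 15 were higher.

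The STAT5 motif TTCNNNGAA was sought in RefSeq promoters (250 bases before to 50 after each gene's start, GRCm38.p6; the motif is its own complement, so both strands are covered). It was found in 8.30% of 32851 promoters and at 2 or more places in 0.457%. Of the 16 STAT5 targets with an entry, 6 held it (Cish, Gzmb, Il12rb2, Irf8, Lta and Socs3). These 16 genes have 21 promoters, and a gene was counted when any of its promoters held the motif. This count of genes is therefore not on the same unit as the 8.30% of promoters. The Cish window holds it at 2 places, within bases 1 to 20 from the annotated start, and is shown because Cish had the largest Y665F ratio among the list's genes past the limit. The stretch at chr9:107296654-107296683 (plus strand) reads as follows, with both matches in capitals.
Cish: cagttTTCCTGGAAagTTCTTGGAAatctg
A match of letters does not show binding, and neither Bcl2 nor Socs1 held the motif in this window.

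The kinases and STATs of the pathway did not move with their targets. Stat5b itself was 53.2 (WT), 50.8 (Y665H) and 34.8 CPM (Y665F), a log2 ratio of -0.61 (-0.87 to -0.34) for Y665F. Stat5a, its close relative, was 23.6, 28.4 and 20.1 CPM. Jak1 was 767, 767 and 608 CPM. Jak3, the kinase bound to the common gamma chain, was 10.5, 25.6 and 14.3 CPM, with a log2 ratio of 1.28 (0.66 to 1.93) in Y665H. The 11 genes of the STAT and JAK list had a median log2 ratio of -0.33 in Y665F and 0.07 in Y665H. Of 16 listed cytokine receptors 11 passed the limit and none was past 2-fold, and Ifngr1, a chain of the interferon-γ receptor, had the largest Y665F ratio of these 11, at 224, 242 and 312 CPM.

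Memory and naive genes gave a mixed account. The 14 naive and central memory genes had a median log2 ratio of -0.10 in Y665F and the 16 memory genes -0.37, against -0.19 for all genes. Eomes, a T-box factor of memory cells, stood at 154 (WT), 156 (Y665H) and 92.2 CPM (Y665F), a log2 ratio of -0.74 (-0.90 to -0.58), and its relative Tbx21 stood at 60.5, 55.1 and 41.8 CPM. Eomes was lower in Y665F on both sides of 30 Ccl5 UMIs, with log2 ratios of -0.99 below and -0.78 at or above. Thinned members with neither factor made up 56.3% in WT, 58.9% in Y665H and 69.5% in Y665F. Ly6c2, a surface antigen of memory CD8 T cells, was 961, 841 and 1059 CPM. Ccr7, the chemokine receptor for lymph node entry, was 103, 90.2 and 118 CPM.

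Dapl1 lay on opposite sides of WT in Y665H and Y665F. It stood at 162 (WT), 87.4 (Y665H) and 246 CPM (Y665F), with log2 ratios of -0.89 (-1.13 to -0.66) and 0.60 (0.46 to 0.74). Among thinned members 23.7%, 13.0% and 34.2% held it. CD8 T cells without Ccl5 followed the same order, at 476, 292 and 695 CPM. Igfbp4 stood at 7.65, 11.8 and 22.6 CPM in members, and at 103, 108 and 250 CPM in CD8 T cells without Ccl5. Id3, a repressor of E proteins that marks long-lived memory precursors, was 65.6, 60.6 and 26.9 CPM, a log2 ratio of -1.28 (-1.54 to -1.02) in Y665F. Ly6a, the surface antigen Sca-1, was 74.2, 123 and 36.5 CPM. Tox, a factor of chronically stimulated T cells, was 55.8, 59.5 and 25.5 CPM, and 12 of the 15 listed checkpoint genes stayed under the 20 CPM limit.

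Several effector receptors stood lower in the edited libraries. Of the 12 listed effector genes 9 passed the limit, with a median log2 ratio of -0.49 in Y665F and -0.16 in Y665H. In Y665H 3 of them were at least 2-fold lower (0.202% of all genes), and in Y665F none was 2-fold lower and Anxa1 was 2-fold higher. In Y665F 69.8% of the Anxa1 UMIs lay in 5 cells, and without members that held 10 or more neutrophil UMIs its log2 ratio was -1.24. Klrg1, the receptor of short-lived effector cells, stood at 29.9 (WT), 11.8 (Y665H) and 16.3 CPM (Y665F), with log2 ratios of -1.34 (-1.99 to -0.74) and -0.88 (-1.25 to -0.51). Cx3cr1, the fractalkine receptor, stood at 83.2, 22.8 and 42.2 CPM, with log2 ratios of -1.86 and -0.98. In the stricter gate the Y665F log2 ratios of Klrg1 and Cx3cr1 were -1.41 and -1.26, both past 2-fold. S1pr5, a sphingosine phosphate receptor for leaving tissue, stood at 26.8, 10.2 and 24.0 CPM, with a Y665F interval of -0.52 to 0.21 on the log2 scale, and Zeb2 at 123, 63.4 and 87.6 CPM. Members with Klrg1 were few at equal depth, 33 of 359 in WT, 9 of 270 in Y665H and 68 of 1227 in Y665F. The WT members with Klrg1 held 1071 CPM of Cx3cr1, against 637 CPM in those of Y665F.

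Killer granule genes did not move together. Of 16 cytotoxic genes 15 passed the limit, with a median log2 ratio of -0.07 in Y665F and 0.09 in Y665H. Gzma stood at 572 (WT), 414 (Y665H) and 332 CPM (Y665F), with log2 ratios of -0.47 and -0.78 (-0.86 to -0.70), and 5 cells held 52.5% of the Y665H UMIs. In the stricter gate the log2 ratios of Gzma were -2.15 in Y665H and -1.22 in Y665F, so the order of the 2 genotypes turned. With at least 2 Cd8b1 UMIs they were -1.17 and -0.74. In members with 30 or more Ccl5 UMIs Gzma was 1285, 941 and 497 CPM, and in those below 36.2, 62.4 and 34.4 CPM, so the Y665F difference lay in the upper range. A UMI of Gzma was found in 26.1%, 18.6% and 16.9% of members and in 6.34%, 4.92% and 2.86% of B cells of the same libraries. At equal depth, Gzmb without Gzma was held by 3.34% of WT, 2.96% of Y665H and 7.25% of Y665F members. Gzmk, a granzyme of memory cells, was 23.6, 21.7 and 8.86 CPM, a log2 ratio of -1.41 (-1.86 to -0.96) in Y665F. Nkg7 and Gzmm, a granule protein and a further granzyme, were at 967, 1029 and 918 CPM and at 90.8, 97.3 and 100 CPM, and these differences were small beside those of Gzma.

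**Figure D4:**
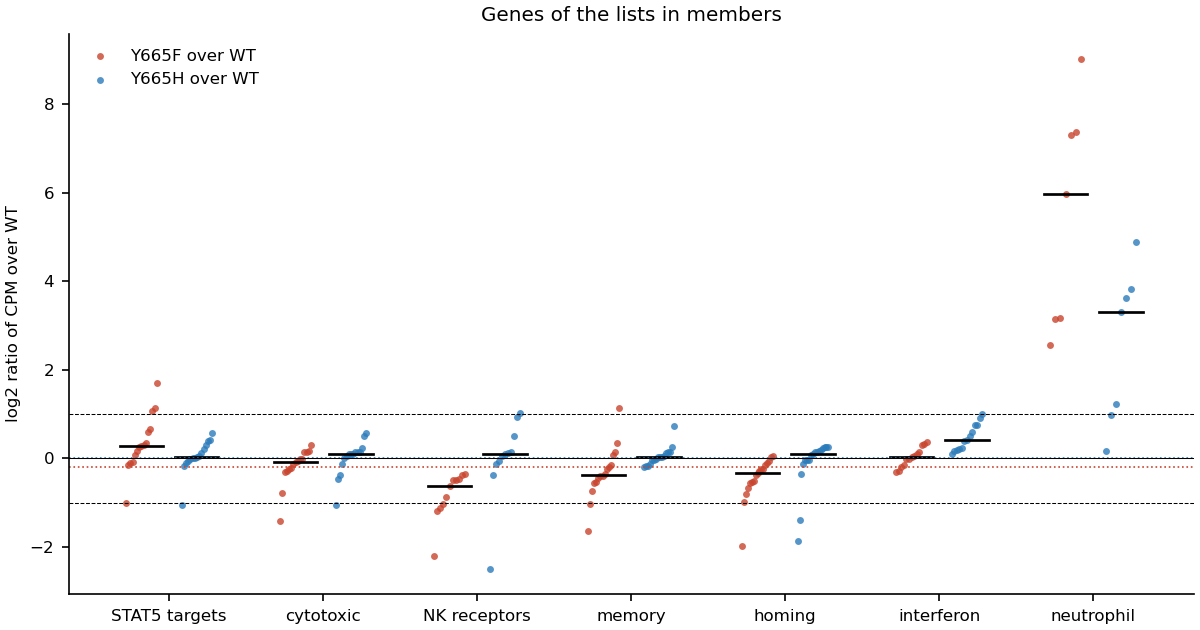
Log2 ratio of member CPM to WT for every gene of each list that passed the 20 CPM limit, in Y665F and Y665H; black bars are list medians and the red dotted line is the median of all genes in Y665F, -0.19. The STAT5 target list has a median of 0.27 in Y665F and 0.03 in Y665H, and the NK receptor list -0.62 and 0.10.

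NK-type receptors stood lower in Y665F members. Of 14 listed receptors and adaptors 11 passed the limit, none of the 11 lay above the all-gene median, and their median log2 ratio was -0.62, against 0.10 in Y665H. The NK markers were also lower in Y665F, with a change from a sum of 104 CPM in WT to 43.3 CPM in Y665F and, for Ncr1, from 31.2 to 5.82 CPM, and their part in this list was not tested. Klrk1, the activating receptor NKG2D, was 187, 144 and 122 CPM. Klre1 was 94.9, 86.6 and 67.9 CPM, and Klrc2, a receptor for the class I molecule Qa-1, was 93.7, 100 and 66.7 CPM. Klra9, a Ly49 receptor, was 48.7 (WT), 8.66 (Y665H) and 10.6 CPM (Y665F), log2 ratios of -2.49 and -2.20, but its reads can be shared with near-identical Ly49 genes. The adaptors Fcer1g (60.9, 116 and 29.7 CPM) and Tyrobp (83.8, 171 and 38.2 CPM) are also abundant in NK and myeloid cells, and in the stricter gate their Y665F log2 ratios were -0.33 and 0.71. In Y665F 4 of the 11 were at least 2-fold lower (1.25% of all genes), and with TMM scaling 1 of the 11, beside 45 of all 5941 genes.

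Cytokine and homing genes had list median log2 ratios of -0.51 and -0.34 in Y665F, against -0.19 over all genes, and of 0.08 and 0.09 in Y665H. With TMM scaling the Y665F medians were -0.28 and -0.11. Above WT in Y665F were 1 of the 7 cytokine genes past the limit and 2 of the 17 homing genes, against 1244 of all 5941 genes. Ifng, the interferon-γ gene, stood at 27.4, 18.5 and 10.1 CPM, but 5 cells held 59.3% of its WT UMIs and its share of thinned members was 3.62%, 4.44% and 3.99%. Xcl1, a chemokine that draws dendritic cells, was 68.8, 71.7 and 28.2 CPM, with 49.5% of its WT UMIs in 5 cells. In the stricter gate neither stayed past 2-fold, with log2 ratios of -0.34 and -0.76. Itgae, which holds T cells in epithelia, stood at 20.1 (WT), 24.0 (Y665H) and 5.13 CPM (Y665F), a log2 ratio of -1.97 (-2.51 to -1.43). Its WT UMIs came from 21 cells, with 57.1% in 5 of them, and its shares of thinned members, 2.23% (0.967 to 4.34) in WT and 1.39% (0.809 to 2.21) in Y665F, overlapped. CD8 T cells without Ccl5 held 55.3, 54.3 and 51.2 CPM of Itgae, and there the libraries lay close together.

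Ranked by size after the exclusions given with the processing, the 10 genes furthest above WT in Y665F included Drc1, Cd163l1, Clstn1 and Trim30c. All of the 10 but Ifitm1 reached 20 CPM only in Y665F, so their places rest on the library where they were highest. Drc1 and Cd163l1 were already on a list drawn from earlier results of these data, so their rank is not independent of it. Drc1, which encodes a regulator of ciliary dynein, stood at 4.14 (WT), 1.18 (Y665H) and 49.1 CPM (Y665F), a log2 ratio of 3.57 (2.78 to 4.49). Its UMIs came from 383 of the 1258 Y665F members, with at most 6 in a cell, and CD8 T cells without Ccl5 held 0.919, 1.04 and 43.5 CPM. Cd163l1, a scavenger receptor gene known from γδ T cells, stood at 14, 11 and 46.1 CPM, from 191 Y665F members, and at 0.131, 0.149 and 2.37 CPM in CD8 T cells without Ccl5. Drc1 thus stood higher in both kinds of CD8 T cell, whereas Cd163l1 was low outside the members.

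Clstn1, a calsyntenin, was 7.33, 9.06 and 20.2 CPM, and Trim30c, which has close relatives that can share its reads, was 14.7, 17.7 and 37.8 CPM. Ifitm6, Chil3, Ifitm1 and Anxa1, which neutrophils and other myeloid cells express, filled the other places beside Cish and Igfbp4. Ifitm6 was 0.319, 7.48 and 25.8 CPM, with 74.4% of its Y665F UMIs in 5 cells. Chil3 had no UMI in WT members, 5.51 CPM in Y665H and 52.5 CPM in Y665F, which makes it at least 5.78 higher on the log2 scale against the 3 UMIs that a count of 0 allows. In Y665F 5 cells held 79.5% of these UMIs, and the bound was 3.66 in the stricter gate, 3.33 with thinned members and 3.23 with at least 30 Ccl5 UMIs. Without the members that held 10 or more neutrophil UMIs, the log2 ratio of Anxa1 was -1.24 in place of 1.49 and that of Ifitm1 -0.24 in place of 1.73.

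On the lower side, S100a4, a calcium-binding protein of migrating cells, stood at 264 (WT), 292 (Y665H) and 85.1 CPM (Y665F), a log2 ratio of -1.63 (-1.77 to -1.497). It was held by 13.4%, 18.1% and 11.2% of thinned members, and 5 cells held 42.3% of the WT UMIs. Fgl2 was 23.9, 29.9 and 7.39 CPM, and Trat1, an adaptor that stabilises the T-cell receptor, was 24.2, 25.6 and 8.17 CPM. The UMIs of Fgl2 came from 48, 34 and 55 cells. Tbc1d4, a Rab GTPase regulator, was 15.3, 20.9 and 5.13 CPM, with a log2 ratio of -0.46 in the stricter gate. Ccr10 (22.6, 13.4 and 3.48 CPM) rested on 13 WT cells and Il1b (15.6, 29.1 and 5.04 CPM) on 8, and the Il1b ratio turned to 1.25 in the stricter gate. Ccr10 reached 20 CPM only in WT. Klra6 (25.8, 25.2 and 8.52 CPM) and the histone gene Hist2h2bb (23.6, 20.1 and 8.52 CPM) have close copies that can share reads, and the log2 ratio of Hist2h2bb was 0.033 in the stricter gate.

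In Y665H, the 6 genes furthest above WT by the same rule were Car1, Car2, Klra3, Hmmr, Cenpe and Vwa5a. Each of the 6 reached 20 CPM only in Y665H, so their places rest on the library where they were highest. Car1, a carbonic anhydrase of red-cell precursors, came from 119 UMIs of 1 cell, and Car2 (13.7, 54.7 and 1.303 CPM) turned to log2 ratios of -0.57 in the stricter gate and -0.61 with at least 2 Cd8b1 UMIs. Hbb-bs, a hemoglobin gene, was 103 CPM in Y665H members against 5.42 CPM in WT. Klra3 (17.8, 49.2 and 13.5 CPM) is a Ly49 gene with close copies. Hmmr (10.5, 26.4 and 7.39 CPM) and Cenpe (16.9, 41.7 and 11.6 CPM), genes of mitosis, came from 10 and 18 Y665H cells. Vwa5a was 9.88, 23.6 and 16.8 CPM. On the lower side stood Klra9, Cx3cr1, Drc1, S1pr5, Klrg1 and Gzmb, of which Drc1 rested on 13 WT and 3 Y665H UMIs, with a log2 ratio of -1.81 (-4.26 to 0.05). Of these, Klra9 and Klrg1 reached 20 CPM only in WT. In the stricter gate the log2 ratio of Gzmb was -0.81, short of 2-fold.

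The lymph node libraries of the series, which the rule did not use, held cells of a like gate in another tissue, with replicates. They came from WT mice (n = 2) and from mice heterozygous (n = 3) or homozygous (n = 2) for Y665F, and the same gate with at least 200 genes per barcode was applied, since these libraries are shallower. It held 38 and 77 cells in WT, 557, 280 and 140 in heterozygous and 221 and 592 in homozygous libraries. As a share of CD8 T cells this was 3.66% and 3.42% in WT, 29%, 18.2% and 13.4% in heterozygous mice, and 16.9% and 37.8% in homozygous mice. Both WT libraries thus lay below each of the 5 Y665F libraries.

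The mean share was 3.54% ± 0.171 (SD, n = 2) in WT and 23.0% ± 10.1 (SD, n = 5) in the Y665F libraries of both zygosities. An exact two-sided permutation test gave p = 0.0952 where the smallest possible is 0.0476, and 0.286 after adjustment over 3 comparisons. The homozygous and heterozygous groups taken alone gave 0.333 and 0.2 by the same exact permutation test, in designs that cannot go below 0.333 and 0.1. Depth differed widely, with medians between 572 and 4561 UMIs per gated cell. With each cell thinned to 500 UMIs before the gate, the shares were 1.60% and 0.950% in WT, 6.76%, 6.02% and 14.5% in heterozygous and 16% and 20.2% in homozygous mice, and all 5 Y665F libraries stayed above both WT libraries. This thinning also left out barcodes under 500 UMIs, 3741 in heterozygous replicate 3 and 3621 in homozygous replicate 1 against 0 to 413 in the others.

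**Figure D5:**
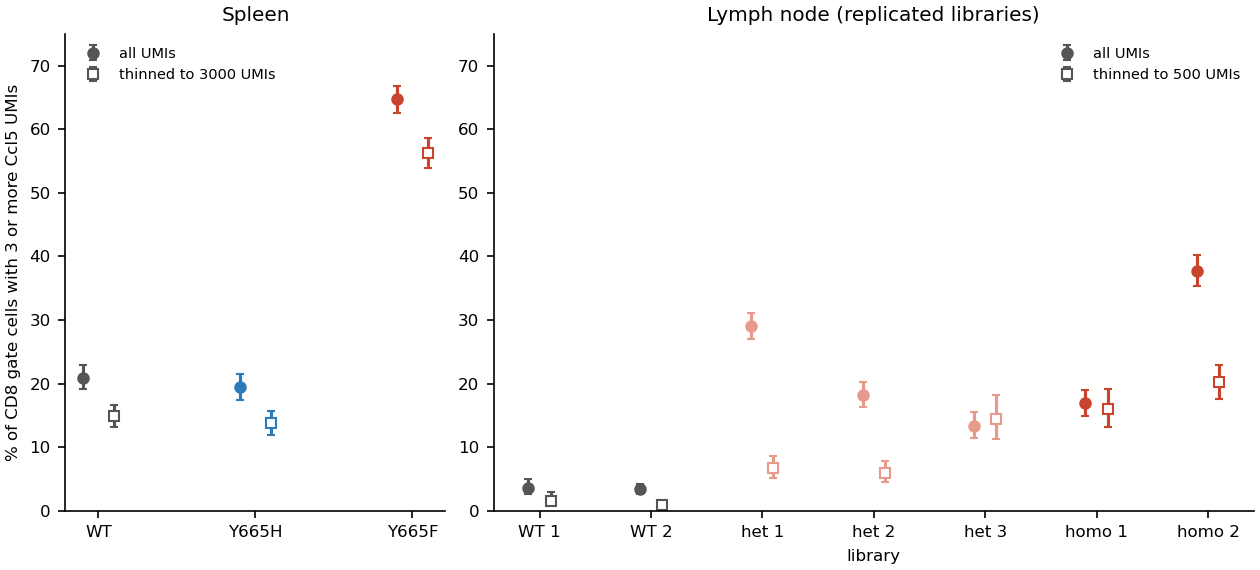
Share of CD8 T cells that were Ccl5-high (y axis, percent) in each spleen and lymph node library, as measured (filled) and with cells thinned to equal depth before the gate (open), with exact binomial 95% intervals. Y665F libraries of both tissues lie above WT, and the Y665H spleen library (19.4%) lies beside WT (20.9%).

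No gene passed the adjusted test between the lymph node groups within the gate. The edgeR quasi-likelihood test over 2615 genes called 0 (0%) for homozygous and 0 (0%) for heterozygous mice against WT with a change of more than 2-fold and a p adjusted by Benjamini-Hochberg under 0.05. At an unadjusted p under 0.05, 190 and 141 genes passed, and DESeq2 called 0 and 0, with 53 and 29 genes at an unadjusted p under 0.05. Bcl2 stood at 395 and 371 CPM in WT, 462, 462 and 383 CPM in heterozygous and 473 and 414 CPM in homozygous libraries. Its log2 fold change in homozygous mice was 0.21 ± 0.21 (SE; edgeR adjusted p = 0.850). Heterozygous replicate 3 lay between both WT values.

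Dapl1 stood at 117 and 117 CPM in WT, 277, 277 and 191 CPM in heterozygous and 195 and 255 CPM in homozygous libraries, all 5 Y665F values above WT. The log2 fold changes were 1.10 ± 0.31 (SE; edgeR adjusted p = 0.380) and 1.26 ± 0.29 in heterozygous mice (SE; edgeR adjusted p = 0.146), so neither passed. Pim1 was 117 and 117 CPM in WT and 240 and 199 CPM in homozygous libraries, with edgeR adjusted p = 0.564. Ly6a was 117 and 96.1 CPM in WT and between 26.8 and 82.7 CPM in the Y665F libraries, with a log2 fold change of -1.02 ± 0.49 in homozygous mice (SE; edgeR adjusted p = 0.666). Cd163l1 was 29.3 and 89.3 CPM in WT and 150 and 132 CPM in homozygous libraries (edgeR adjusted p = 0.564). Levels in the lymph node were not set beside those of the spleen, because the sources name kits that read opposite ends of a transcript.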

How the data were processed

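The deposited spleen and lymph node files hold raw counts, as UMIs of each gene in each barcode. The authors ran Cell Ranger against GRCm38 (version 6.0.0 for spleen and 5.0.0 for lymph node per the file headers, 5.0 per the labels, which also name Seurat 4.0). The labels name a 3′ kit and the methods of the study a 5′ kit. Filters of the authors on barcodes are not given in the sources used here. Bone marrow and T-cell receptor libraries were not used here. Of the listed genes, 1 is not reported here.

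Doublets were not called; the stricter gate stands in for that. UMIs were summed over members and scaled to CPM. Ratios carry exact conditional binomial intervals, levels Poisson and shares Clopper-Pearson intervals. Members thinned to 3000 UMIs gave shares of cells with a gene. Among 32285 genes, 78 shared a symbol, and the identifier with the most UMIs kept it.

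Lymph node UMIs were summed per library, and edgeR's quasi-likelihood test was applied (TMM, filterByExpr, all groups in 1 fit; edgeR 4.0.16, limma 3.58.1, R 4.3.3), with DESeq2 1.42.0 as an alternative. The labels do not tie the lymph node libraries to litters or days, so p-values measure the spread between these libraries. The other steps used scipy 1.17.1, pandas 2.3.3, numpy 2.4.6 and matplotlib 3.10.9 in Python 3.11.15, and the scripts were tested on simulated data.

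The members and the gene lists were chosen with earlier results of these data known. Named genes are those that describe their list, plus the 10 largest differences each way for Y665F and 6 each way for Y665H at 20 CPM or more. That ranking left out the genes of the rule, receptor and immunoglobulin segments, hemoglobin, mitochondrial, ribosomal and sex-linked genes, unnamed models, markers of other cells, and genes whose CPM in B cells was at least 0.5 of their member CPM, both in the library of the pair where members were higher. The last clause left 13 of 18 higher and 34 of 57 lower genes for Y665F, and 7 of 31 and 6 of 10 for Y665H. Alternatives changed the Ccl5, Cd8b1 and gene minimums, depth, scaling, low-value filter, gate, tool, block and libraries.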

Additional observations from a re-analysis of the deposited data

How the results depend on the processing

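The share of CD8 T cells that were Ccl5-high kept its order under each setting tried. In WT, Y665H and Y665F it was 23.7%, 21.5% and 67.9% with at least 2 Ccl5 UMIs, 18.5%, 17.2% and 61.7% with at least 5, and 14.9%, 13.8% and 56.3% with cells thinned to 3000 UMIs before the gate. With at least 30 Ccl5 UMIs, a setting chosen after seeing the data, it was 10.4%, 8.24% and 43.4%. For the lymph node, thinning to 500 UMIs, also chosen after seeing the data, gave a mean difference to WT of 11.4 percentage points in place of 19.5.

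Counts of genes past 2-fold depended on the settings. For Y665F over WT they were 400 higher and 1522 lower with no minimum CPM and 12 and 25 with a minimum of 50 CPM. Lower genes numbered 41 with TMM scaling, 116 with thinned members, 48 in the stricter gate and 196 with at least 30 Ccl5 UMIs. For Y665H over WT they were 1072 and 587 with no minimum, 17 and 2 with 50 CPM, 97 and 87 with thinned members, and 85 and 94 with at least 30 Ccl5 UMIs. At least 2 Cd8b1 UMIs gave 29 higher in Y665H, and the stricter gate 25 lower. Without members at 10 or more neutrophil UMIs, chosen after seeing the data, Y665H had 24 and 27 and Y665F 20 and 88.

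The genes named in the text that were past 2-fold stayed past it in 48 of 52 cases with at least 5 Ccl5 UMIs, 46 of 53 with TMM and 38 of 52 in the stricter gate. These counts leave out ratios that passed 2-fold only in another setting. In the stricter gate such ratios included those of Klrg1 and Cx3cr1 in Y665F and of Gzma in Y665F and Y665H. Among ratios of named genes past 2-fold, those that changed sign in the stricter gate were of Hist2h2bb (0.033), Il1b (1.25), Irf8 (0.040) and Tyrobp (0.71) in Y665F and of Car2 in Y665H (-0.57, and -0.61 with at least 2 Cd8b1 UMIs). The cause was not tested.

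In the lymph node, homozygous and heterozygous mice had 4 and 5 calls with no filter on low counts, 1 and 2 with at least 500 genes per barcode, and 1 and 0 with at least 1 Ccl5 UMI. Leaving out 1 library at a time gave 0 to 6 and 0 to 4 calls. Replicate numbers did not pair the libraries (correlations of same-numbered libraries from -0.118 to 0.0861), and the fit with the replicate block called 0 and 0. The small WT sums, 69984 and 149471 UMIs, limit this comparison, as 1 library per genotype limits the spleen.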

Other observations

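Interferon-induced genes stood higher in Y665H members than in WT. Of the 14 listed genes 13 passed the 20 CPM limit, and all 13 were above WT, beside 3151 of all 5941 genes. Their median log2 ratio was 0.42 against 0.01 over all genes. None was past 2-fold. Isg15, a ubiquitin-like modifier, stood at 24.5 (WT), 48.8 (Y665H) and 24.2 CPM (Y665F), a log2 ratio of 0.99 (0.57 to 1.42) for Y665H. Ifit1, which binds foreign RNA, stood at 15.3, 28.7 and 15.6 CPM, and Usp18, a brake on interferon signaling, at 16.2, 27.6 and 16 CPM. Both reached 20 CPM only in Y665H, so their place among the 13 rests on the library where they were highest. In Y665F the list median was 0.02. For Isg15 the CD8 T cells without Ccl5 held 32.4, 37.0 and 23.7 CPM, so the gap was smaller there.

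Immediate early and heat shock genes also stood higher in Y665H, with 12 of 12 genes past the limit above WT and a median log2 ratio of 0.33, beside 3151 of all 5941 genes above WT and a median of 0.01. With TMM scaling 11 of the 12 lay above WT. In Y665F 5 of the 12 lay above WT, beside 1244 of all 5941 genes. Egr1, an immediate early factor, was 23.9, 49.2 and 12.5 CPM, Fos 41.4, 72.5 and 24.4 CPM, and Jun 110, 171 and 80.6 CPM. Fos and Jun in CD8 T cells without Ccl5 followed the same order, at 35.2, 90.5 and 33.7 CPM and at 123, 185 and 98.8 CPM. Heat shock genes were not particular to Y665H. Hsph1 was found in 15.0%, 17.4% and 23.4% of thinned members and Hspe1 in 61.8%, 67.8% and 69.4%. Hsp90aa1 was found in 60.7%, 60.4% and 64.9%, and Dnajb1 in 12.3%, 21.5% and 18.6%. Hspa1b, an inducible heat shock protein, rested on 3 UMIs in WT and stood at 27.2 CPM in Y665H and 17.6 CPM in Y665F. It reached 20 CPM only in Y665H, so its place among the 12 rests on the library where it was highest. Handling time and dissociation are not recorded in the labels, and their part was not tested.

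Dividing cells were few. The 12 cell cycle genes past the limit had a median log2 ratio of -0.53 in Y665F, against -0.19 over all genes, and of 0.08 in Y665H. In Y665F 1 of the 12 lay above WT, beside 1244 of all 5941 genes. With TMM scaling the Y665F median was -0.30, with 2 of the 12 above WT. Mki67, a marker of cycling cells, was 100 (WT), 130 (Y665H) and 55.3 CPM (Y665F), with 75.5% of the WT UMIs in 5 cells, and it was found in 6.41%, 6.30% and 3.75% of thinned members. The gene above WT in Y665F was Pcna, a clamp of DNA replication, at 87.6, 85.1 and 91.9 CPM. Genes of glycolysis had median log2 ratios of 0.08 in Y665F and 0.01 in Y665H over the 8 genes past the limit, with no gene past 2-fold. In Y665F 7 of the 8 lay above the all-gene median of -0.19, and the list median was 0.30 with TMM scaling.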
